A study of Homo sapiens with 18 samples.

Results

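The nuclear-encoded oxidative phosphorylation genes encode the subunits of the respiratory chain and of ATP synthase that are made in the cytosol and carried into mitochondria. They were chosen by symbol: protein-coding genes named NDUFA, NDUFB, NDUFC, NDUFS or NDUFV for complex I, SDHA to SDHD for complex II, UQCR genes and CYC1 for complex III, the numbered COX subunits for complex IV, ATP5 genes for complex V, and CYCS for cytochrome c. Of 91 genes that meet this rule in GENCODE 44, 85 were among the 16575 genes measured. The other 6, ATP5MGL, COX4I2, COX6A2, COX7A1, COX8C and UQCRHL, were not analysed here. The 85 fell into 38 genes of complex I, 4 of complex II, 9 of complex III, 15 of complex IV with NDUFA4 and NDUFA4L2, 18 of complex V and CYCS. Transcript 5′ ends had been counted with CAGE-seq, which captures the cap of each RNA and reads its first bases, and levels were given as CPM, the reads of a gene scaled to a common library size.

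Complex I takes electrons from NADH and complex II takes them from succinate. Both pass them through ubiquinone to complex III, which hands them to cytochrome c, and complex IV gives them to oxygen. Complexes I, III and IV pump protons, and ATP synthase, complex V, uses the returning protons to make ATP. A few core subunits are encoded by mitochondrial DNA, and nuclear regulators such as NRF1, GABP and YY1 are known to bind the promoters of many nuclear ones. Urothelial tumour cells, like most proliferating cells, hold these complexes along with active glycolysis.

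The libraries came from 3 established human lines of bladder carcinoma, RT-112 and HT-1376 along with CAL-29, and the same 6 variants were made of each by transduction. Those with the control vector for WWOX received in addition a control vector (KK), AP-2α (KA) or AP-2γ (KC), and those with WWOX likewise a control vector (WK), AP-2α (WA) or AP-2γ (WC). WWOX, a tumour suppressor protein, and AP-2α or AP-2γ, transcription factors encoded by TFAP2A and TFAP2C, were each driven by a CMV promoter from lentiviral vectors in consecutive transductions, with antibiotic selection after each, and control cells went through both with control vectors. Each line and variant gave 1 library, 18 in all, so a variant was replicated only across lines of different origin, and p-values measure only the spread between these libraries. RT-112 grew in RPMI-1640 and the other lines in DMEM, with 15% serum for HT-1376 and 10% for the others, and a glucose content, 4.5 g/L, is given for HT-1376 only, so line and medium cannot be told apart. In bulk libraries such as these, fewer cells of a type and less RNA per cell cannot be told apart either.

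Libraries held 13357102 to 17958572 reads over the measured genes, where 1 read was worth 0.0526 to 0.0709 CPM. The epithelial markers EPCAM, CDH1, KRT7, KRT8, KRT18 and KRT19 had a median of at least 1 CPM in every line, and so did 9, 7 and 9 of 11 urothelial markers in RT-112, HT-1376 and CAL-29. Of the leukocyte and endothelial lists only CD68 and CDH5 were measured. The 3 measured of 5 fibroblast markers summed to 3.44 to 59.5 CPM, and TNNT1, the 1 measured of 4 muscle markers, had 1.32 to 56.5 CPM. The part of such markers in the results was not tested. TFAP2C was 1.35 to 4.55 times as high with the AP-2γ vector, and TFAP2A was 0.909 to 2.60 times as high with the AP-2α vector, the low value in HT-1376 with WWOX. The library labelled RT-112 WA, which should carry AP-2α, had 179.87 CPM of TFAP2C, 3.20 times RT-112 WK and above the 142.75 CPM of RT-112 WC, while its TFAP2A was 1.25 times RT-112 WK. In the other KA and WA libraries TFAP2C was 0.799 to 1.42 times KK or WK. The library labelled RT-112 WA was kept under its label, and values without it are given beside the results. WWOX was 2.43 and 1.35 times as high in CAL-29 WK/KK and WA/KA and 1.36 times in HT-1376 WC/KC, and 0.713 to 0.857 times in the other pairs of RT-112 and HT-1376. RNA that starts in a vector need not be counted at the native gene. The library labelled CAL-29 KC stood with HT-1376 rather than CAL-29 in most genes that separate these lines, so CAL-29 KC was set apart, and 17 libraries enter every comparison except those of variants over all lines.

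Promoters are printed for members named in the comparisons. ATP5ME and NDUFV1 stand for the cell lines, and NDUFS4, SDHD and COX7B2 for WWOX. NDUFA6 stands for the cell lines and for the AP-2γ variant, where no member was called. Each promoter is 250 bases before to 50 after the RefSeq gene start, 5′ to 3′ on the gene's strand, in GRCh38.p14. Capitals mark letters of 5 motifs searched on both strands: GCGCATGC for NRF1, CCGGAAGT for ETS/GABP, AANATGGCG for YY1, GCCNNNGGC for AP-2 and TGACGTCA for CRE. ATP5ME, subunit e of the membrane part of ATP synthase, at chr4:674227-674526 on the minus strand, holds the CRE and NRF1 letters.
ATP5ME: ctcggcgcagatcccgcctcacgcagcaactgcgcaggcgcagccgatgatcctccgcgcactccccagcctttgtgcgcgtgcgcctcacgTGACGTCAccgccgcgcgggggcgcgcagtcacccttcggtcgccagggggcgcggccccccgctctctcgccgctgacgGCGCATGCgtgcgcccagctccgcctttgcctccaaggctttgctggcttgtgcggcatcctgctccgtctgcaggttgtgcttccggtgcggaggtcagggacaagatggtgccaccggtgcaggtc
NDUFV1, which binds NADH in complex I, at chr11:67606686-67606985 on the plus strand, holds the AP-2 letters.
NDUFV1: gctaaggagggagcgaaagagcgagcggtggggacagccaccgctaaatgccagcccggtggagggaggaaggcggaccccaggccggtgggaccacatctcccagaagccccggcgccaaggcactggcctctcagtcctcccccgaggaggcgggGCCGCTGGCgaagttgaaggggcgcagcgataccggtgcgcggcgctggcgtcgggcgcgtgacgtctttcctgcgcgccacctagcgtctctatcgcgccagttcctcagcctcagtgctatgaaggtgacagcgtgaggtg
NDUFA6, an accessory subunit of complex I, at chr22:42090723-42091022 on the minus strand, holds the NRF1 and YY1 letters.
NDUFA6: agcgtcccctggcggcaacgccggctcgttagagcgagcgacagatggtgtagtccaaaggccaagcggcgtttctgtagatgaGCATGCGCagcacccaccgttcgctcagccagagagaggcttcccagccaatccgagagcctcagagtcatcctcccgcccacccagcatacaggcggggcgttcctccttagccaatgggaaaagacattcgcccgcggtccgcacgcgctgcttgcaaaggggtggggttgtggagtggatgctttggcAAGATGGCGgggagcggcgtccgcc
NDUFS4, an accessory subunit needed for a stable complex I, at chr5:53560389-53560688 on the plus strand, holds the YY1 letters just after the start.
NDUFS4: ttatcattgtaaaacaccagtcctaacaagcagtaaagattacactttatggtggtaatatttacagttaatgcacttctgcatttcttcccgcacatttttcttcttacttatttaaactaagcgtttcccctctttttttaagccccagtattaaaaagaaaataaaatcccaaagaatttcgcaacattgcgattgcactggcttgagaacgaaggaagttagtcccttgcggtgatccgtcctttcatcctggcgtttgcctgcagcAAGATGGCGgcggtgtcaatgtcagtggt
SDHD, a membrane anchor of complex II, at chr11:112086623-112086922 on the plus strand, holds the AP-2 letters, a pair of overlapping NRF1 matches and the ETS/GABP letters on the opposite strand.
SDHD: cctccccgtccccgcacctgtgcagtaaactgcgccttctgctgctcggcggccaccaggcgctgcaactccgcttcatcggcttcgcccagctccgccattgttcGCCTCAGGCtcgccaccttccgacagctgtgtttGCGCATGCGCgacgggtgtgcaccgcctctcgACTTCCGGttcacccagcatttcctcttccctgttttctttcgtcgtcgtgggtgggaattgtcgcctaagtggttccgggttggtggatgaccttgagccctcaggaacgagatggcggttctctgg
COX7B2, a testis form of the complex IV subunit COX7B, at chr4:46909196-46909495 on the minus strand, holds none of the 5.
COX7B2: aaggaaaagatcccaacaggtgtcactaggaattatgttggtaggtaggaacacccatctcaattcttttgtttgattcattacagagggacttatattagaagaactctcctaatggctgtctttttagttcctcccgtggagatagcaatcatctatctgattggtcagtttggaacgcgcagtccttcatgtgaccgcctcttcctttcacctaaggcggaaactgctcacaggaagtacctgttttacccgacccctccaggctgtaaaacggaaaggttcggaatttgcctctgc

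Promoters of this kind were found for 69 of the 85 members. The NRF1 letters stood in 14 of them, 20.3%, against 3.05% of all 35116 promoters in the table. The YY1 letters stood in 16, 23.2%, against 3.19%, the ETS/GABP letters in 10, 14.5%, against 4.14%, and the CRE letters in 5, 7.25%, against 1.85%. The AP-2 letters stood in 13, 18.8%, where all promoters gave 23.2%. The other 28 promoters held none of the 5, and the median GC content was 61.3% in members and 58.7% in all promoters. A match describes letters, not binding. Beside the AP-2 letters, the median log2 effect of AP-2α over the lines was −0.01 in the 13 members with them and −0.03 in the other 56, and that of AP-2γ was −0.11 and −0.01.

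All 85 members had at least 5 CPM in at least 1 library and were among the 13022 genes tested, but COX7B2 reached that level only in the HT-1376 libraries with WWOX. Over the 17 libraries the mean level was above 1000 CPM for 6 members, 100 to 1000 for 59, 10 to 100 for 16 and under 10 for 4. One read stands for one capped end here, so a longer transcript does not by itself give more reads. Whether the ends of different genes were captured and assigned equally well was not tested. In complex I, levels ran from 769 CPM for NDUFB4, an accessory subunit, to 17.97 CPM for NDUFS1, the largest iron-sulphur subunit. In complex II, SDHA, the flavoprotein that oxidises succinate, had 231 CPM and SDHC, a membrane anchor, 7.50 CPM. Complex III ran from UQCRQ, a small accessory subunit, at 1244 CPM to UQCRC2, a core protein, at 17.3 CPM, and complex IV from COX5B at 1341 CPM to COX7B2 at 2.49 CPM. In complex V, ATP5MG, subunit g of the membrane part, had 1186 CPM and ATP5F1A, the alpha subunit of the catalytic head, 40.6 CPM. Subunits of 1 assembled complex thus had measured 5′ end levels far apart.

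The members with low levels had long transcripts and varied more. Members of at least 500 CPM, 30 in all, had a median transcript length of 640 bases, and the 20 members under 100 CPM one of 1764 bases. Across 83 members, 2 read-through loci left out, Spearman's rho was −0.43 between level and length, −0.42 between level and the SD within lines, and 0.28 between that SD and length; genes are not independent replicates, and all come from the same libraries. The median SD within lines was 0.33 on the log2 scale. The SD was 1.08 for COX7B2, 1.06 for COX6B2, 0.76 for ATP5F1A and 0.74 for NDUFS1.

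Together the 83 members took 3.93 to 5.01% of the CPM in RT-112 (median 4.33%), 2.86 to 3.78% in HT-1376 (median 3.51%) and 2.39 to 3.65% over 5 CAL-29 libraries (median 3.03%). Every RT-112 library was above every HT-1376 and CAL-29 library, while HT-1376 and CAL-29 overlapped. The order held for complexes I and IV. Complex I summed to 14158 ± 1075 CPM in RT-112, 11458 ± 684 in HT-1376 and 9609 ± 1752 over the CAL-29 libraries (SD, n = 6, 6 and 5). Complex IV summed to 12551 ± 886, 8878 ± 1019 and 8038 ± 1689 CPM. For complex V the sums were 9008 ± 1399, 6266 ± 989 and 6162 ± 1346 CPM, and for complex III 5309 ± 536, 4771 ± 514 and 3384 ± 617 CPM. Complex II went another way, with its highest sum in HT-1376, at 674 ± 66.4 CPM where RT-112 had 364 ± 77.9 and CAL-29 427 ± 51.4. CYCS, the electron carrier between complexes III and IV, had its lowest level in RT-112, at 106 ± 53.8 CPM, with 212 ± 62.5 in HT-1376 and the highest, 312 ± 67.0, in CAL-29. The median gene of the table had 4.71 to 5.72 CPM in RT-112 libraries, 6.25 to 9.42 in HT-1376 and 8.10 to 15.3 over the CAL-29 libraries, so a CPM stands for a different place among all genes in each line, and its part in these orders was not tested.

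**Figure D1:**
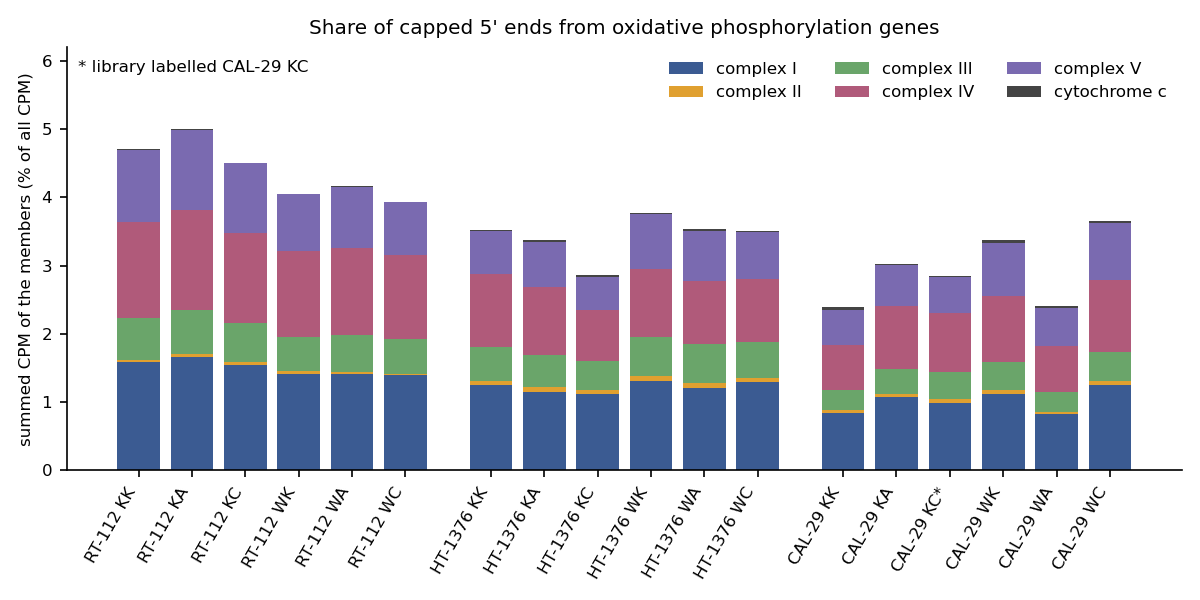
Share of each library's summed CPM, in percent, taken by the nuclear-encoded members of each complex, for the 18 libraries in order of cell line and variant. RT-112 libraries sit between 3.93 and 5.01%, above all HT-1376 and CAL-29 libraries, and complexes I and IV make up most of every bar.

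**Figure D2:**
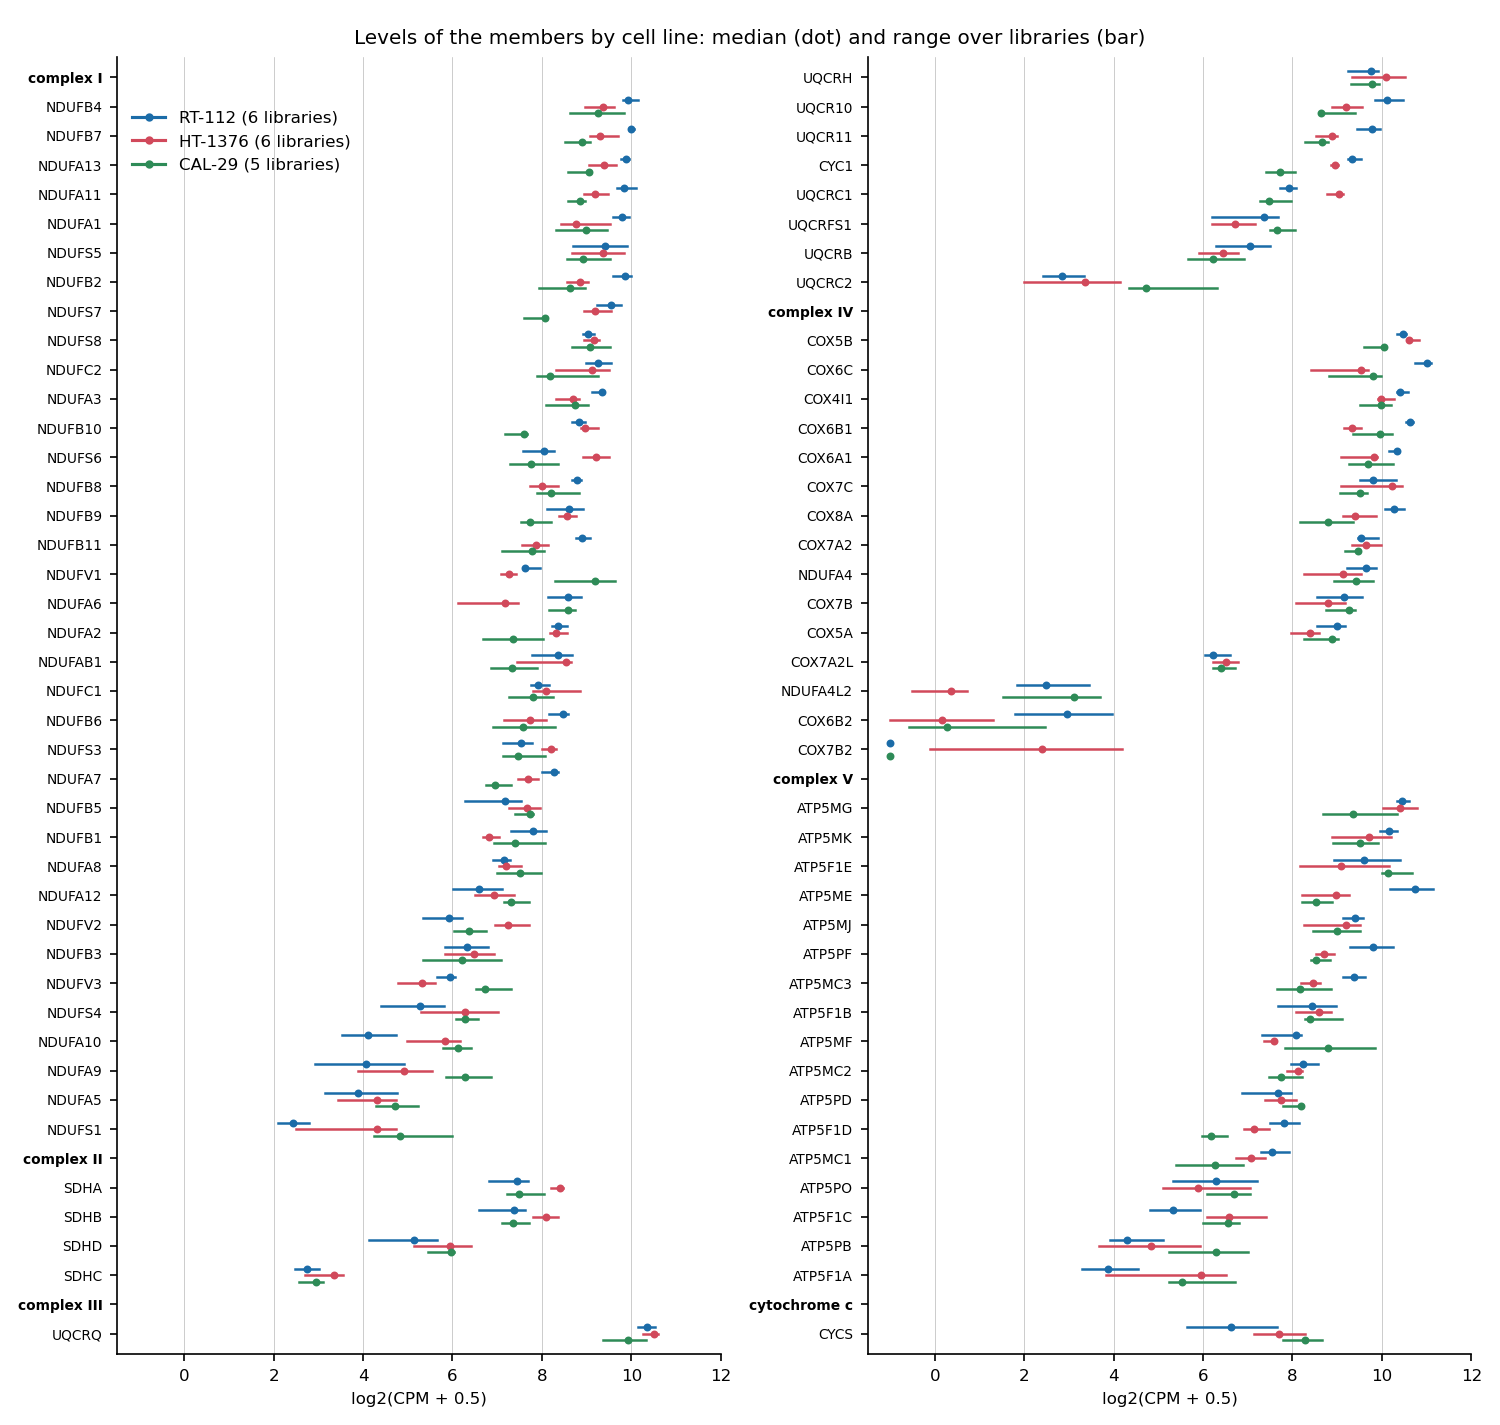
Level of 82 members in each cell line on the log2(CPM + 0.5) scale, as the median with the lowest and highest library, grouped by complex; 6 libraries of RT-112, 6 of HT-1376 and 5 of CAL-29. Most members lie between 100 and 1000 CPM, and COX7B2 has reads only in HT-1376.

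The 3 lines were compared gene by gene with limma on log2(CPM + 0.5), with WWOX and AP-2 as terms, and p-values adjusted by the Benjamini-Hochberg method over 13022 genes. Between RT-112 and HT-1376, 33 members were higher in RT-112 and 17 lower, where 19.6% and 42.6% of all genes were called. Between RT-112 and CAL-29, 39 were higher and 20 lower, beside 15.9% and 56.5% of all genes. Between HT-1376 and CAL-29, 27 were higher and 15 lower, beside 18.3% and 42.5%. The median member differed by 0.23, 0.32 and 0.18 on the log2 scale where the median gene differed by −0.43, −0.82 and −0.44. After TMM scaling, which moved the median gene to −0.10, −0.17 and −0.11 and the median member to 0.59, 1.03 and 0.53, the counts became 41 and 12, 57 and 8, and 40 and 11, beside 28.2% and 31.2%, 31.1% and 38.7%, and 26.4% and 30.6% of all genes. Without the library labelled RT-112 WA, 31 members were higher and 16 lower in RT-112 than in HT-1376, and 38 and 18 than in CAL-29. By complex, RT-112 against HT-1376 gave 15 higher and 8 lower members in complex I, 0 and 4 in II, 4 and 1 in III, 9 and 1 in IV and 5 and 2 in V. The same counts with TMM were 16 and 6, 0 and 1, 5 and 1, 10 and 1, and 10 and 2. Against CAL-29, complex IV had 8 higher and 0 lower in RT-112, and complex V 8 and 6, which became 13 and 0, and 9 and 2, with TMM. COX7B2, which was tested only because of HT-1376, is among the 17 members lower in RT-112 and the 27 higher in HT-1376. NDUFA4L2 and COX6B2, under 5 CPM in every HT-1376 library and tested only because of the other lines, are among the 33 higher in RT-112. NDUFA4L2 is also among the 15 lower in HT-1376 than in CAL-29. The comparisons share libraries, so their counts are not independent of each other.

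Members with no overlap between libraries gave the same picture. All RT-112 libraries were above all HT-1376 libraries for 29 members, 34.1%, and for 15.1% of all genes, and below them for 11 members, 12.9%, and 29.1% of all genes. RT-112 was above both other lines for 19 members, 22.4%, against 5.78% of all genes, among them 4 of complex IV (COX4I1, COX6B1, COX6C and COX8A) and 8 accessory subunits of complex I. HT-1376 was above both others for 8 members, 9.41% against 6.53% of all genes, SDHA, SDHB and NDUFS6 among them. COX7B2, which was tested only because of HT-1376 with WWOX, is among these 8 and among the 11, and is no support. NDUFA4L2 and COX6B2, tested only because of RT-112 and CAL-29, are among the 29 and are no support either. CAL-29 was above both for 4, NDUFA9, NDUFV1, NDUFV3 and UQCRC2, 4.71% against 13.5% of all genes.

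Among small membrane subunits, ATP5ME had 1154 to 2261 CPM in RT-112 (median 1722), 295 to 612 in HT-1376 (median 503) and 294 to 473 over the CAL-29 libraries. RT-112 was apart from both other lines, and these overlapped each other. The log2 difference was 1.81 ± 0.19 (SE) against HT-1376 and 2.22 ± 0.20 against CAL-29, 3.5-fold and 4.67-fold on the log2(CPM + 0.5) scale (limma, Benjamini-Hochberg adjusted p = 7.61e-07 and 1.76e-07). COX6C, a small subunit of complex IV, had 1711 to 2196 CPM in RT-112 (median 2066) and 343 to 831 in HT-1376 (median 735), without overlap. Its log2 difference was 1.58 ± 0.23 (limma adjusted p = 2.55e-05). NDUFV1, which binds NADH, was highest in CAL-29. It had 195 to 249 CPM in RT-112 (median 198), 135 to 170 in HT-1376 (median 154) and 725, 794, 585, 314 and 456 CPM in CAL-29 KK, KA, WK, WA and WC. CAL-29 was apart from both lines, 3.62-fold above HT-1376 (log2 −1.86 ± 0.19 for HT-1376 against CAL-29, limma adjusted p = 1.06e-06). NDUFV3, which sits beside NDUFV1, had 92.3 to 157 CPM in CAL-29 and 27.1 to 48.0 in HT-1376 (median 39.6), again without overlap (log2 −1.60 ± 0.14, limma adjusted p = 1.36e-07).

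NDUFV2, the iron-sulphur partner of NDUFV1, had its highest levels in HT-1376 instead, at 123 to 210 CPM (median 151) against 40.2 to 73.9 in RT-112 (median 60.1), a log2 difference of −1.46 ± 0.18 for RT-112 against HT-1376 (limma adjusted p = 5.52e-06). NDUFS1 had 3.81 to 6.47 CPM in RT-112 (median 4.92) and 18.6 to 62.6 in CAL-29, 6.31-fold higher (log2 −2.66 ± 0.37, limma adjusted p = 1.46e-05). Of the 7 nuclear core subunits of complex I, which carry its redox centres, 1 was higher and 4 lower in RT-112 than in HT-1376. Against CAL-29, 1 was higher and 3 lower in RT-112, and HT-1376 had 4 higher and 2 lower than CAL-29. With TMM the counts were 2 and 3, 3 and 2, and 4 and 2. The shares of all genes called are those given above for these pairs of lines. NDUFS7, the core subunit next to the ubiquinone site, was the higher one in RT-112 against CAL-29, with 605 to 867 CPM (median 749) against 194 to 277. Its log2 difference was 1.53 ± 0.14 (limma adjusted p = 2.35e-07).

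Accessory subunits of complex I were also split. NDUFA6 had 281 to 470 CPM in RT-112 (median 384), 68.7 to 175 in HT-1376 (median 144) and 284 to 428 over the CAL-29 libraries, so HT-1376 was apart from both. For RT-112 against HT-1376 the log2 difference was 1.52 ± 0.21 (limma adjusted p = 1.75e-05). NDUFA10 had 10.97 to 26.2 CPM in RT-112 (median 16.9) and 31.3 to 71.3 in HT-1376 (median 56.6), a log2 difference of −1.54 ± 0.22 (limma adjusted p = 1.93e-05), and it was also lower in RT-112 than in CAL-29 (−1.95 ± 0.23). NDUFA9 was lower in RT-112 and in HT-1376 than in CAL-29, by −2.22 ± 0.33 and −1.51 ± 0.33. NDUFS6 had 483 to 729 CPM in HT-1376 (median 595) and 156 to 330 over the CAL-29 libraries, a log2 difference of 1.43 ± 0.21 (limma adjusted p = 2.93e-05). NDUFB10 was 1.52 ± 0.14 higher in HT-1376 than in CAL-29.

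In complex II all 4 members were lower in RT-112 than in HT-1376 (limma, Benjamini-Hochberg adjusted p under the threshold), with a median log2 difference of −0.83, but with TMM only 1 was called and the median was −0.47. SDHA had 111.9 to 204 CPM in RT-112 (median 173) and 294 to 355 in HT-1376 (median 336), and SDHB, its iron-sulphur partner, 96.8 to 195 (median 166) and 222 to 329 (median 272), both without overlap. In complex III the core proteins parted. UQCRC1 had 435 to 563 CPM in HT-1376 (median 529) and 153 to 250 over the CAL-29 libraries, a log2 difference of 1.39 ± 0.15 (limma adjusted p = 1.29e-06). UQCRC2 had 3.5 to 17.2 CPM in HT-1376 (median 9.73) and 78.5, 19.9, 25.9, 47.1 and 20.8 CPM in CAL-29 KK, KA, WK, WA and WC, a difference of −1.92 ± 0.37 (limma adjusted p = 0.000382). CYC1, cytochrome c1 of the same complex, had 604 to 736 CPM in RT-112 (median 647) and 170 to 267 in CAL-29, a difference of 1.60 ± 0.13 (limma adjusted p = 4.34e-08).

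In ATP synthase, ATP5F1A was lower in RT-112 than in HT-1376 and CAL-29, by −1.54 ± 0.38 and −1.93 ± 0.40, while ATP5F1D, the delta subunit of its central stalk, had 180 to 284 CPM in RT-112 (median 226) and 62.2 to 92.5 in CAL-29 (1.60 ± 0.15, limma adjusted p = 3.44e-07). The c subunit, whose ring turns with proton flow, is encoded by 3 genes for 1 mature protein. They summed to 1163 ± 94.4 CPM in RT-112 (SD, n = 6), 752 ± 58.7 in HT-1376 (n = 6) and 625 ± 208 in CAL-29 (n = 5). ATP5MC3 gave 51.1 to 61.3% of the sum in RT-112 libraries, 40.2 to 49.2% in HT-1376 and 45.5 to 54.1% over the CAL-29 libraries, ATP5MC2 19.7 to 34.7%, 34.2 to 40.8% and 33.8 to 45.0%, and ATP5MC1 14.1 to 19.0%, 15.1 to 20.5% and 9.47 to 13.4%. The ATP5MC3 share in RT-112 was above all HT-1376 libraries and overlapped CAL-29.

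Tissue forms of complex IV subunits were rare beside their common counterparts. COX6B2, a testis form of COX6B1, had 0.18 to 1.03% of the CPM of COX6B1 in RT-112 and at most 0.30% in HT-1376 and 0.78% over the CAL-29 libraries. NDUFA4L2, a paralog of NDUFA4 known to be induced in hypoxia, had 0.35 to 1.45% of NDUFA4 in RT-112 libraries, 0.027 to 0.20% in HT-1376 and 0.26 to 2.18% over the CAL-29 libraries. Its CPM were 3.10 to 10.3 in RT-112 (median 5.07), 0.20 to 1.15 in HT-1376 (median 0.79) and 2.36 to 12.6 over the CAL-29 libraries, so HT-1376 was below both (log2 2.37 ± 0.34 for RT-112 against HT-1376). NDUFA4L2 was tested only because of RT-112 and CAL-29, where it was high, so these values are a description with no p. COX7B2 was at 0 reads in all 6 RT-112 and 5 CAL-29 libraries, and had 0.43 to 17.6 CPM in HT-1376, 0.16 to 3.65% of COX7B. Against the level of 3 reads in 1 library, its HT-1376 mean was at least 39.1-fold higher than RT-112 and at least 41.9-fold higher than CAL-29, and the lowest HT-1376 library at least 2.38-fold and 2.55-fold. Such floors cover counting error only. Of 12 common counterparts of alternative forms and read-through loci, which belong to complexes I, III, IV and V, 5 were higher and 0 lower in RT-112 than in HT-1376, 6 and 1 than in CAL-29, and 3 and 3 in HT-1376 than in CAL-29; with TMM 7 and 0, 10 and 0, and 5 and 1. The shares of all genes called are those given above for these pairs of lines. The read-through loci NDUFC2-KCTD14 and ATP5MF-PTCD1 carried 100% and 95.9 to 98.5% of the CPM of NDUFC2 and ATP5MF and cannot be told apart from them. Counts over all the members hold both rows of each such pair.

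The members sit on 22 chromosomes, 11 of them on chromosome 19. Those 11 had a median log2 difference of 0.66 for RT-112 against HT-1376 and 1.16 for RT-112 against CAL-29, where the 936 tested genes of chromosome 19 had 0.39 and 0.21. The 6 members on chromosome 5 had −0.59 for RT-112 against HT-1376, where all 591 tested genes there had −0.98. The 7 on chromosome 11, NDUFV1 and SDHD among them, had 0.08, and the 733 tested genes there −0.62.

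Each of the variants was compared with KK over the 3 lines, with limma on all 18 libraries and no term for the line. No member passed the threshold in WK, KA, KC, WA or WC against KK, and 0% of all 13022 genes did. At an unadjusted p under 0.05 there were 0, 0, 0, 0 and 1 members, beside 0.292%, 0.0538%, 0.0845%, 0.284% and 0.645% of all genes, and limma-voom, edgeR and DESeq2 on recovered reads called 0 members in each. The median member moved by 0.08, 0.12, −0.03, −0.06 and 0.05 on the log2 scale, and the median gene by −0.08, −0.04, −0.09, 0.01 and −0.25. The 1 member under 0.05 was ATP5PO, the stalk protein OSCP, in WC, at 39.4, 34.1 and 67.1 CPM in RT-112, HT-1376 and CAL-29 WC against 81.0, 63.2 and 132 in KK. It was lower in 3 of 3 lines and the groups overlapped by the values 67.1 and 63.2 (log2 −0.96 ± 0.42, limma adjusted p = 1.00). In KC, NDUFA6 had 419, 68.7 and 97.8 CPM against 422, 115 and 381 in KK, where 97.8 is the library set apart (log2 −0.90 ± 0.70, limma adjusted p = 1.00). NDUFB3, an accessory subunit of complex I, had the smallest or next smallest p in WK, KA and WA, with log2 0.63, 0.55 and 0.43 ± 0.41, beside ATP5MK in WK and WA at 0.52 and 0.47 ± 0.41 and COX7B in KA at 0.39 ± 0.33. NDUFV1 in KC had log2 −0.86 ± 0.71. Its reads were 3873, 1906 and 2227 in RT-112, HT-1376 and CAL-29 KC against 3597, 2334 and 12926 in KK, where 2227 is the library set apart. ATP5PB, subunit b of the peripheral stalk of ATP synthase, had −1.16 ± 0.81 in WC, at 14.6, 12.2 and 40.5 CPM against 20, 32.6 and 129 in KK. None of these passed the threshold. With the line as a block, members at an unadjusted p under 0.05 numbered 1, 0, 1, 0 and 3, beside 3.89%, 0.484%, 4.22%, 1.6% and 10.7% of all genes, and none passed the threshold. Without the library labelled RT-112 WA, no member passed either, and the median member in WA moved by −0.14 where the median gene moved by 0.26.

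Over the lines, with line, WWOX and AP-2 as terms, no member was called for WWOX, AP-2α or AP-2γ by limma, and 0% of all genes were. Members at an unadjusted p under 0.05 numbered 7 for WWOX, 1 for AP-2α and 0 for AP-2γ, beside 12.3%, 1.53% and 2.63% of all genes. Without the library labelled RT-112 WA these were 7, 0 and 0 members. For WWOX, limma-voom and DESeq2 called 1 member, COX7B2, which was tested only because of HT-1376 with WWOX, and edgeR 0. NDUFV3 was lowest in p for WWOX, at 60.3 to 64.3 CPM without and 49.7 to 65.9 CPM with it in RT-112, 41.6 to 48.0 and 27.1 to 37.6 in HT-1376, and 108 to 157 and 92.3 to 105 in CAL-29. It overlapped in RT-112 and was lower with WWOX in HT-1376 and CAL-29 (log2 −0.36 ± 0.11, limma adjusted p = 0.296). For AP-2α, NDUFA4L2 moved by 0.76 ± 0.34 (limma adjusted p = 1.00), and for AP-2γ, ATP5F1E, the epsilon subunit of ATP synthase, by −0.57 ± 0.28 (limma adjusted p = 0.999). Next in p were ATP5PO for WWOX at −0.59 ± 0.20, NDUFS4 for AP-2α at 0.45 ± 0.27 and COX7C for AP-2γ at −0.39 ± 0.22, none past the threshold.

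Within lines the members leaned in different directions with WWOX. In RT-112, 70, 66 and 68 of 85 were lower with WWOX in WK/KK, WA/KA and WC/KC. Higher in these pairs were 16.5%, 21.2% and 18.8% of members, beside 54.4%, 49.2% and 36.5% of all genes. Lower in all 3 pairs were 53 members, 62.4%, against 19.5% of all genes. In HT-1376, 48, 56 and 57 were higher, 56.5%, 65.9% and 67.1%, beside 40.7%, 37.6% and 44.1% of all genes. Over all 3 pairs 31 were higher, 36.5%, against 20.5% of all genes, and 9 were lower, 10.6%, against 36.0%. In CAL-29 the pairs went opposite ways. There 61 were higher in WK/KK (median 0.39) and 65 lower in WA/KA (median −0.33), while the median gene moved by −0.15 and 0.29. Higher in these pairs were 71.8% and 22.4% of members, beside 41.1% and 66.0% of all genes. In both pairs 6 were higher, 7.06% against 25.2% of all genes, and 10 were lower, 11.8% against 16.6%. CAL-29 KK and WA were also the libraries where the median gene had the highest CPM. The pairs of a line share no library but share the line, and these counts carry no test. The labels do not say whether WK, WA and WC of a line came from the same WWOX-transduced cells, or KK, KA and KC from the same control cells. The 3 pairs therefore need not be independent.

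The limma effects within lines gave the sizes. In RT-112 the median member fell by 0.30 on the log2 scale where the median gene fell by 0.03 (−0.25 for members with TMM), and the medians were −0.27 for complex I, −0.41 for II, −0.30 for III, −0.09 for IV and −0.45 for V. No member passed the threshold in RT-112, nor did any gene (0%), and 19 members had an unadjusted p under 0.05, 22.4% beside 7.52% of all genes, where TMM left 10, 11.8% beside 7.63%, and leaving out the library labelled RT-112 WA gave 14. Here limma-voom, edgeR and DESeq2 called 0. NDUFB5, an accessory subunit of complex I, had 168, 186 and 165 CPM in RT-112 KK, KA and KC and 125, 109 and 77.1 in WK, WA and WC, without overlap (log2 −0.76 ± 0.18, limma adjusted p = 0.267). SDHD had 40.1, 49.7 and 41.4 CPM and then 27.2, 29.01 and 17.1, also without overlap (log2 −0.86 ± 0.21, limma adjusted p = 0.267). CYCS moved by −1.04. In HT-1376 the medians were 0.13, 0.18, 0.14, 0.18 and 0.11 for complexes I to V, and in CAL-29 0.07, 0.09, 0.12, 0.13 and 0.34.

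**Figure D3:**
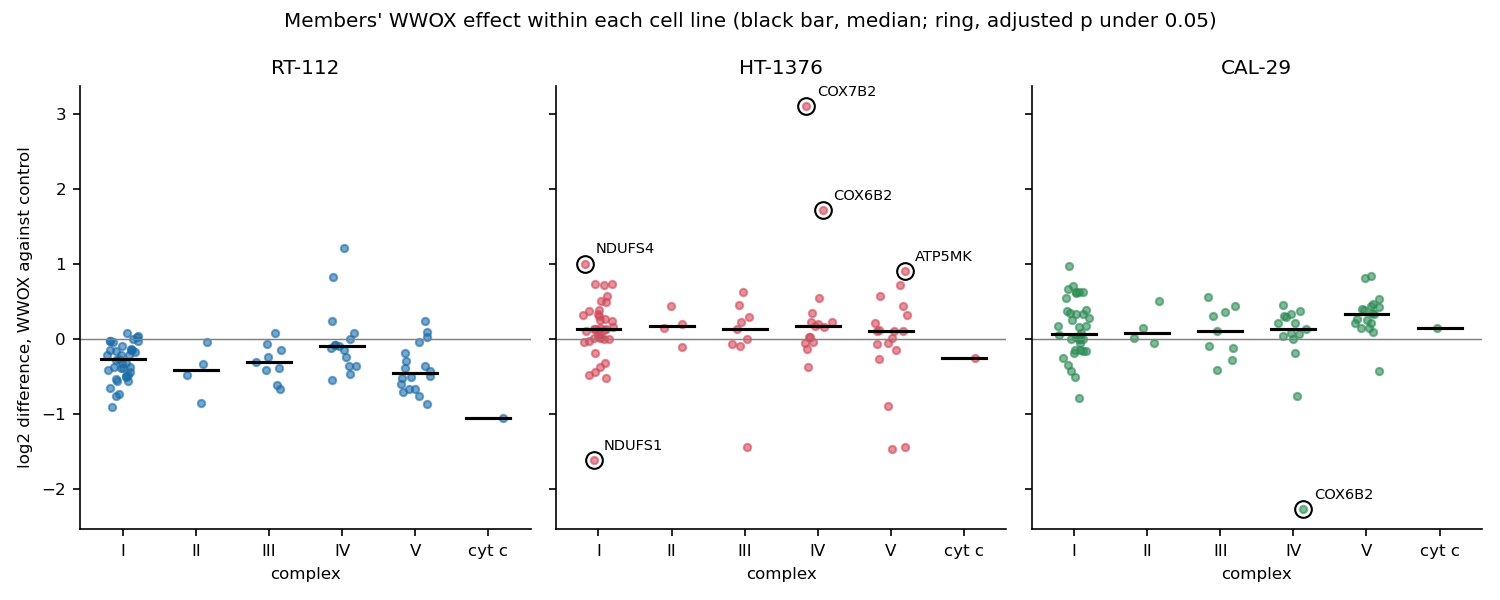
Log2 effect of WWOX on each member, by complex, within RT-112, HT-1376 and CAL-29 (limma, 17 libraries); each point is 1 member and a ring marks an adjusted p under 0.05. Most points lie under 0 in RT-112, around a median of −0.30, and rings stand on 5 HT-1376 points and 1 CAL-29 point.

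In HT-1376, 4 members were higher with WWOX and 1 lower, 4.71% and 1.18%, beside 4.21% and 4.38% of all genes. With TMM 3 were higher and 3 lower, beside 5.41% and 5.55% of all genes. COX7B2 had 1.91, 0.96 and 0.43 CPM in KK, KA and KC and 17.6, 13.9 and 7.56 in WK, WA and WC. The groups did not overlap, but COX7B2 reached 5 CPM in no other library, so it was tested only because of the libraries where it was high; it is 1 of the 4, and its values are a description with no p. COX6B2 had 0, 0.11 and 0.14 CPM and then 1.95, 1.09 and 1.31 (log2 1.72 ± 0.39, limma adjusted p = 0.0164), a change of levels under 2 CPM that depends on the pseudocount. Without HT-1376 KK, KA, WK or WC its adjusted p was 0.0569 to 0.101. NDUFS4 had 38.7, 76.2 and 50.3 CPM without WWOX and 121, 130 and 78.5 with it, and the groups were apart by 76.2 against 78.5. Its log2 effect was 1.01 ± 0.21 (limma adjusted p = 0.0121), and without KK or WK the adjusted p was 0.0788 and 0.0933.

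The lower member in HT-1376 was NDUFS1, with 23.0, 23.4 and 26.0 CPM in KK, KA and KC and 5.22, 15.5 and 5.2 in WK, WA and WC. The groups did not overlap (log2 −1.61 ± 0.43, limma adjusted p = 0.0361), but the call was lost on leaving out KK, KA, KC, WK or WC, at limma adjusted p of 0.0839 to 0.195. ATP5F1A, the lowest member of complex V, had 65.6, 60.2 and 91.3 CPM without WWOX and 13.7, 62.0 and 20.2 with it, with overlap at WA. UQCRC2, the lowest of complex III, had 12.1, 15.8 and 17.2 CPM and then 3.5, 7.35 and 5.37, and SDHC, the lowest of complex II, had 10.3, 9.93 and 5.96 CPM and then 11.3, 7.99 and 9.37. None of these 3 passed the threshold, and with TMM UQCRC2 did (limma adjusted p = 0.0397). ATP5MK, a small membrane subunit of ATP synthase, was the fifth member called, named because the count is small, with 633, 696 and 469 CPM and then 1182, 1185 and 971 (limma adjusted p = 0.0306; with TMM 0.0585).

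In CAL-29, 0 members were higher with WWOX and 1 lower, beside 0.33% and 0.261% of all genes. The lower one was COX6B2, with 5.05 and 2.76 CPM in KK and KA and 0.17, 0.71 and 0.22 in WK, WA and WC, the opposite of HT-1376. The groups did not overlap (log2 −2.26 ± 0.44, limma adjusted p = 0.0348), and without CAL-29 KK or WK the adjusted p was 0.176 and 0.174.

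The F test of the difference between lines in the WWOX effect called 4 members, beside 3.02% of all genes. They were COX6B2, NDUFS4 and SDHD (limma adjusted p = 0.00760, 0.0205 and 0.0336) and COX7B2, for which no p is given, since it was at 0 reads in all RT-112 libraries and 5 of CAL-29 and was tested only because of HT-1376 with WWOX. NDUFS4 went down in RT-112, from 39.3, 55.5 and 40.1 CPM to 20.7, 36.7 and 24.6, up in HT-1376, and overlapped in CAL-29, at 87.2 and 77.1 against 66.6, 94.5 and 73.0. SDHD went down in RT-112, and overlapped in HT-1376, at 57.4, 65.3 and 34.5 against 84.4, 79.3 and 49.0 CPM. In CAL-29 it had 56.6 and 43.1 against 62.4, 65.3 and 61.6 CPM. With the library labelled CAL-29 KC kept, none of the 4 was called (limma adjusted p = 0.0966, 0.0606 and 0.130 for COX6B2, NDUFS4 and SDHD). NDUFS4 also lost the call without RT-112 KA or KC or HT-1376 KK or WK (limma adjusted p of 0.0506 to 0.0678). SDHD lost it without RT-112 KA, KC, WK, WA or WC, HT-1376 KK, KA, WK or WA, or CAL-29 KA (0.0509 to 0.107), and with limma-voom and edgeR (0.0599 and 0.0568).

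**Figure D4:**
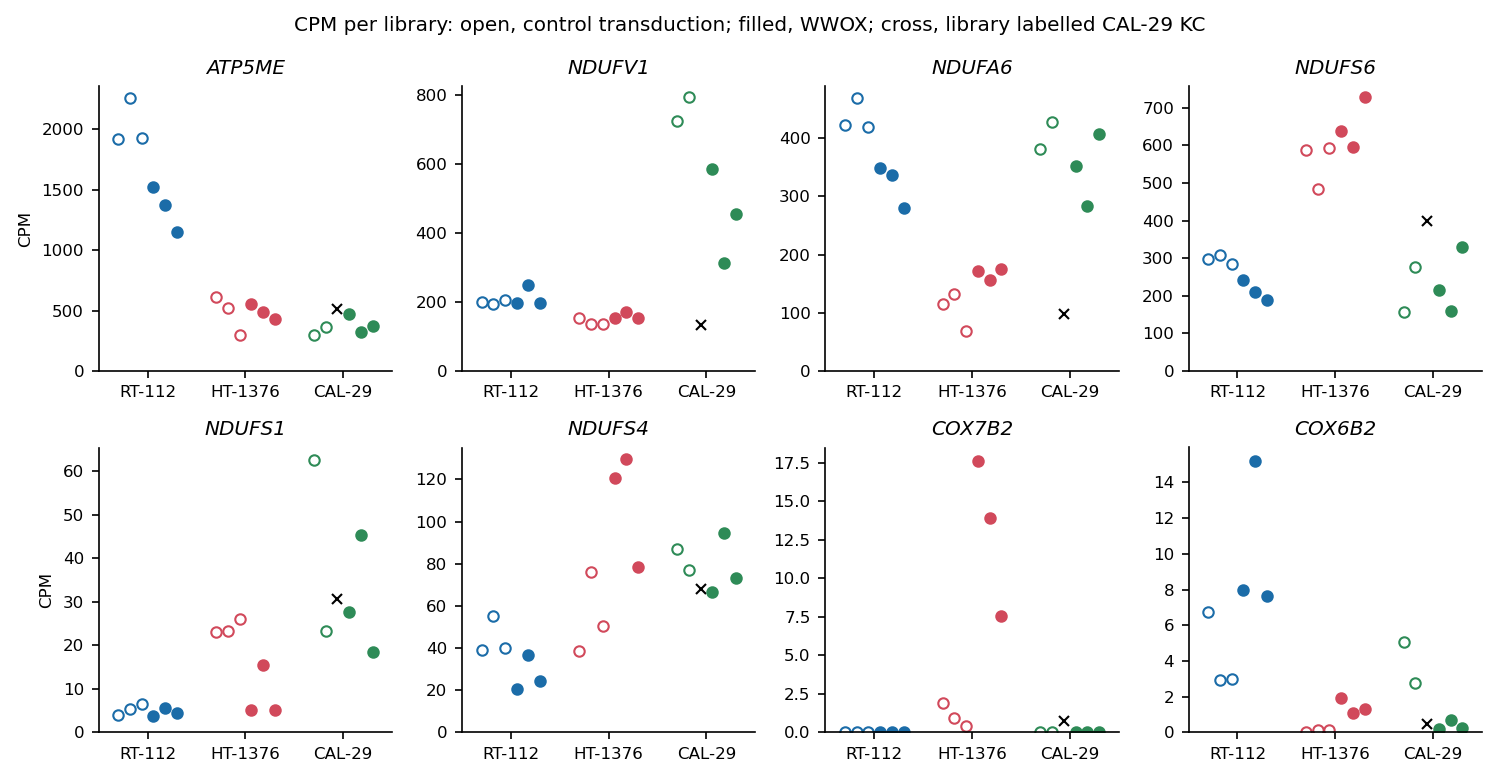
CPM in each library of ATP5ME, NDUFV1, NDUFA6, NDUFS6, NDUFS1, NDUFS4, COX7B2 and COX6B2 by cell line; open symbols are variants with the control vector, filled ones those with WWOX, and the cross is the library labelled CAL-29 KC. In HT-1376 the filled symbols of COX7B2 and NDUFS4 lie above the open ones and those of NDUFS1 below, and the cross of NDUFV1 and NDUFA6 lies with HT-1376.

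The library labelled CAL-29 KC was nearer to HT-1376 than to CAL-29 in most members that part these lines. Of 24 members whose HT-1376 and CAL-29 libraries did not overlap, 28.2% of the 85 where all genes gave 31.6%, 20 were nearer the HT-1376 mean, 83.3%, and of 4117 such genes 83.8% were. ATP5MF and its read-through locus ATP5MF-PTCD1, which share most of their CPM, are both among the 24 and the 20. The library lay within the HT-1376 range for 11 of the 24, within the CAL-29 range for 2, and outside both for 11. NDUFV1 had 133 CPM there, against 314 to 794 in the other CAL-29 libraries, and COX7B2 0.72 CPM, where the others were at 0. The 83 members took 2.85% of its CPM. With it kept in the fit, members called between HT-1376 and CAL-29 went from 27 higher and 15 lower to 26 and 13.

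**Figure D5:**
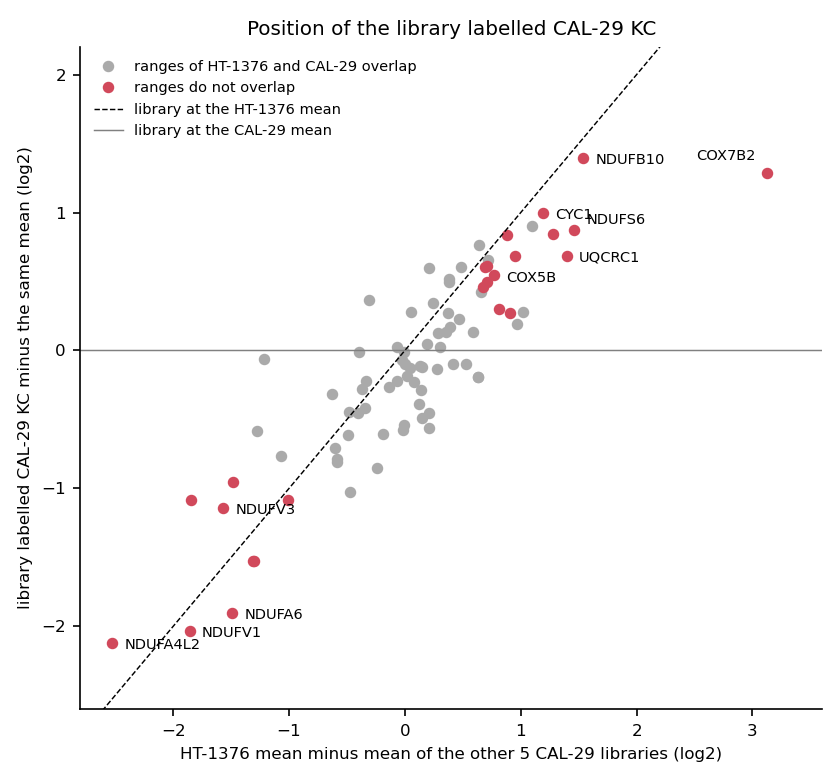
Each point is 1 member on the log2(CPM + 0.5) scale: across, its HT-1376 mean minus the mean of the other 5 CAL-29 libraries, and up, the library labelled CAL-29 KC minus that CAL-29 mean; red marks the 24 members whose HT-1376 and CAL-29 libraries do not overlap. A point on the dashed line is at the HT-1376 mean and one on the flat line at the CAL-29 mean, and 20 of the 24 red points are nearer the dashed line.

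Other genes of the pathway were taken as lists, whose counts were not tested against all genes. For RT-112 against HT-1376, 19.6% of all genes were higher and 42.6% lower. The shares were 15.9% and 56.5% for RT-112 against CAL-29, and 18.3% and 42.5% for HT-1376 against CAL-29. With TMM they were 28.2% and 31.2%, 31.1% and 38.7%, and 26.4% and 30.6%. For WWOX in HT-1376 they were 4.21% and 4.38%. Of 17 complex I assembly factors, 2 were higher and 11 lower in RT-112 than in HT-1376, 2 and 9 than in CAL-29, and 7 higher and 2 lower in HT-1376 than in CAL-29; with TMM the counts were 3 and 7, 6 and 2, and 9 and 2. TMEM126A, an assembly factor of the complex I membrane arm, was 5.00-fold lower in RT-112 than in HT-1376 (log2 −2.32 ± 0.32). With WWOX in HT-1376, 3 of the 17 were higher, among them TMEM126A and TMEM126B, both by 1.07. Of 39 assembly factors of complexes II to V, 9 were higher and 11 lower in RT-112 than in HT-1376, 11 and 16 than in CAL-29, and 5 and 13 in HT-1376 than in CAL-29, and with TMM 17 and 7, 21 and 9, and 14 and 7. FMC1, needed for ATP synthase assembly, was 1.95 ± 0.15 higher in RT-112 than in HT-1376, and SCO1, a copper chaperone of complex IV, −1.85 ± 0.19. With WWOX in HT-1376, COA8 and COX20 were higher and COX14 lower.

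Of 20 regulators of mitochondrial gene expression measured of 21, 1 was higher and 6 lower in RT-112 than in HT-1376, 5 and 11 than in CAL-29, and 4 and 8 in HT-1376 than in CAL-29; with TMM the counts were 8 and 3, 8 and 6, and 6 and 4. PPARGC1A, the coactivator PGC-1α, was lower in RT-112 and HT-1376 than in CAL-29, by −3.33 ± 0.40 and −2.89 ± 0.40. YY1 was lower in RT-112 than in CAL-29 by −2.02 ± 0.21, and POLRMT, the mitochondrial RNA polymerase, higher by 1.35 ± 0.14. With WWOX in HT-1376, SLIRP was higher and TFB2M lower. Of 13 enzymes of the tricarboxylic acid cycle, which feeds complexes I and II, 3 were higher and 7 lower in RT-112 than in HT-1376, 2 and 7 than in CAL-29, and 2 and 3 in HT-1376 than in CAL-29; with TMM 3 and 5, 5 and 3, and 3 and 1. SUCLG2 and FH were lower in RT-112 than in CAL-29 by −2.69 ± 0.21 and −2.65 ± 0.33. None of the 13 was called for WWOX in any line by limma. The shares of all genes given with the assembly factors stand beside the counts of regulators and enzymes as well. The 13 subunits encoded by mitochondrial DNA were not analysed here.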

How the data were processed

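CAGE-seq was measured in 18 libraries of 3 cell lines. The members and gene lists were chosen with earlier results of these data known. Per the study's methods, the authors sequenced 75 nt single-end reads, mapped them to hg38 with BWA and then HISAT2 2.0.5, clustered tags with Paraclu and filtered clusters by reproducibility between replicates. The authors deposited CPM per gene with 2 decimals. Symbols, positions and transcript lengths came from GENCODE 44, and promoters from RefSeq, GRCh38.p14.

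Here CPM were turned into log2(CPM + 0.5), genes reaching 5 CPM in 1 or more libraries were kept, and limma 3.58.1 (R 4.3.3) was fitted with a mean-variance trend over all 13022 genes. p-values were adjusted by the Benjamini-Hochberg method and called at 0.05. The variants were fitted on 18 libraries without a block, since the study's methods name none. WWOX and AP-2, WWOX within lines, and lines were fitted on 17 libraries, with line, WWOX and AP-2 terms. A fold is on the log2(CPM + 0.5) scale and understates changes of low genes. Whole reads were recovered from the CPM steps for 99.97 to 99.99% of values (within 0.005 CPM), which gave edgeR 4.0.16, DESeq2 1.42.0 and limma-voom as alternatives; the scripts were tested on simulated data. Same-numbered libraries were paired because they come from the same line, as the labels give it: deviations from the variant means correlated at 0.742 to 0.915 within RT-112, 0.588 to 0.896 within HT-1376 and 0.0363 to 0.881 within CAL-29 (from 0.663 without CAL-29 KC). Alternatives were the pseudocount, the filter, TMM, the tool, the replicate block, the library labelled CAL-29 KC, leaving out each library and, chosen after seeing the data, leaving out RT-112 WA. Means of a complex leave out the 2 read-through loci. One result is not reported here.

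Members named are the isoform pairs, the c subunit genes, the highest and lowest of each complex, up to 5 per direction with the largest called difference between lines, up to 3 per direction with the largest called effect otherwise (where none passed, the 2 with the smallest p), up to 4 of the F test, and up to 2 per direction of each other list. Intervals and floors cover counting error only.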

Additional observations from a re-analysis of the deposited data

Results flagged for a closer look

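In groups of 5 or 6 libraries of 1 line, a single library stood far from the others for 3 of 114 groups of member values looked at, where chance gives about 1 in 20. NDUFV1 had 248.91 CPM in RT-112 WA and 195.2 to 207.0 in the other RT-112 libraries. COX6C had 343.12 CPM in HT-1376 KC and 716 to 831 in the other HT-1376 libraries. NDUFB10 had 610.94 CPM in HT-1376 WC and 466 to 505 in the others.

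The WWOX effect differed between the lines for 4 members by the F test (limma, Benjamini-Hochberg adjusted p): COX7B2 at 0.00604, which is no support since it was at 0 reads in RT-112 and 5 CAL-29 libraries and was tested only because of HT-1376 with WWOX, COX6B2 at 0.00760, NDUFS4 at 0.0205 and SDHD at 0.0336. COX6B2 was higher with WWOX in HT-1376 and lower in CAL-29, at levels under 6 CPM, and NDUFS4 was higher in 3 of 3 pairs in HT-1376 and lower in 3 of 3 in RT-112. All 4 lost the call with the library labelled CAL-29 KC kept. With COX7B2 counted, the 4 were 4.71% of members, beside 3.02% of all genes. The difference between these shares was not tested, so the count does not set the members apart from all genes.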

How the results depend on the processing

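Of 57 results of named members, none reversed direction under the alternatives run, 48 held and 9 lost the call under at least 1. The 9 are all of the 57 that were calls for WWOX within a line or of the F test. The 48 are differences between lines, or results that did not pass the threshold and stayed so. Counts of called members stayed within 1.5 times in 215 settings and moved beyond in 25, where 0 members both times was taken as the same. For WWOX over the lines, limma-voom and DESeq2 called 1 member where limma called 0. For WWOX in HT-1376 the 5 members became 9 with DESeq2 and 2 with the library labelled CAL-29 KC kept, and 1 to 5 leaving out single libraries. For WWOX in CAL-29 the 1 member became 0 with a pseudocount of 0.05 or 2 CPM, with edgeR or with CAL-29 KC kept, and 0 to 8 leaving out single libraries, 8 without WA. For the F test the 4 members became 2 with edgeR and 0 with CAL-29 KC kept, and 2 to 18 leaving out single libraries, 18 without CAL-29 WA, 8 without KK and 7 without WC. For most of the single libraries left out, shares of all genes are not given here, so these ranges are no result about the members. The cause of these moves was not tested.

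Over all genes, those calls moved from 1118 to 241 with CAL-29 KC kept and 1887 with DESeq2 in HT-1376, from 77 to 24 with edgeR and 297 with DESeq2 in CAL-29, and from 393 to 0 with CAL-29 KC kept, 151 without RT-112 WA and 1162 with DESeq2 in the F test. For WWOX over the lines the 0 genes became 70 with limma-voom, 16 with edgeR and 221 with DESeq2, and for the variants against KK 2 to 9 with DESeq2. The replicate block, with the line as block, left 0 members called in every variant comparison and changed no other call. TMM moved member medians to 0.25 (WWOX in HT-1376), 0.59, 1.03 and 0.53 (line pairs).

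With 1 library per line and variant, effects within a line rest on the spread pooled over lines, a low member such as COX6B2 rests on few reads, and line and medium cannot be told apart.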

Other observations

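Members with short and long transcripts did not move together in every library. The 41 members with transcripts of 303 to 763 bases deviated from their line means by −0.34 in CAL-29 KK, −0.25 in WA and 0.34 in WC on the log2 scale, on average, and the 42 members of 804 to 11660 bases by 0.05, −0.13 and 0.07. In HT-1376 KC the means were −0.30 and −0.15, and in WK 0.20 and 0.00. This split was chosen after the values were seen and has no test.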
